A study of Mus musculus with 12 samples.

Results

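The 46 genes described here encode the nuclear part of respiratory complex I. They are the protein-coding genes of a 52550-gene count table whose symbol starts with Nduf, without names in -ps (pseudogenes) and without Ndufb4c, a near-identical copy of Ndufb4. All 46 held at least 100 counts summed over the 12 libraries (363 for Ndufaf5 to 5486 for Ndufa3), and all 46 were among the 18458 genes tested. By role they fall into 7 core subunits, 27 small accessory subunits, 2 larger accessory subunits (Ndufa9 and Ndufa10), 8 assembly factors, and Ndufa4 and Ndufa4l2. The last pair carries the family name, but Ndufa4 is a subunit of complex IV and Ndufa4l2 is its paralog, so they are given apart. Ndufv3, with a coding length of 1404 bases, is in the small accessory class by its role.

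RNA was sequenced from wild-type C57BL/6 mice, from the cortex at embryonic day 12.5 and from the retina at postnatal day 0. In each tissue, RNA bound to Ythdf1 or to Ythdf2 was recovered with an antibody to that protein (RNA immunoprecipitation, IP), and RNA with no antibody step served as input. The 6 groups were cortex input, cortex Ythdf1 IP, cortex Ythdf2 IP, retina input, retina Ythdf1 IP and retina Ythdf2 IP, with 2 libraries each. The labels do not say whether the replicates came from separate animals, so p-values measure only the spread between these libraries, which may be technical. Both antibodies of a tissue are set against the same 2 inputs, and no control-antibody library was analysed here.

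Complex I oxidises NADH in the mitochondrial matrix, passes the electrons to ubiquinone and pumps protons across the inner membrane. Its core subunits hold the flavin and the iron-sulfur clusters of the peripheral arm or, in the membrane arm, are encoded by mitochondrial DNA. The accessory subunits surround and stabilise that core, and the assembly factors build the complex without staying in it. Ythdf1 and Ythdf2 are readers of N6-methyladenosine (m6A), a methylated base of mRNA, in the cytoplasm. Adenosine is most often methylated within a GGAC context, and Ythdf2 is best known for promoting decay of bound mRNA and Ythdf1 for promoting translation.

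The coding sequences of 2 small accessory subunits are shown because they are among the shortest of the set and carry little of that motif. Sequences are the spliced sense strand of the GENCODE M21 transcript on GRCm38, 5′ to 3′, without the stop codon, with GGAC in capitals. Ndufa1, a membrane-arm subunit (chrX:37187724-37191090, minus strand, 210 coding bases in 3 exons of the transcript), is the only member with no GGAC anywhere in its transcript of 419 bases. Ndufa3, another membrane-arm subunit (chr7:3617398-3620089, plus strand, 252 coding bases), holds 1. The base after it is t, so that it reads GGACT.
Ndufa1: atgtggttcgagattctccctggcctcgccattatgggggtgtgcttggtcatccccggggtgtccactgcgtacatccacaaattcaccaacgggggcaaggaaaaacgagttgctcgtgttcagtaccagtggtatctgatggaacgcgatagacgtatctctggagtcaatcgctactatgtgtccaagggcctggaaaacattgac
Ndufa3: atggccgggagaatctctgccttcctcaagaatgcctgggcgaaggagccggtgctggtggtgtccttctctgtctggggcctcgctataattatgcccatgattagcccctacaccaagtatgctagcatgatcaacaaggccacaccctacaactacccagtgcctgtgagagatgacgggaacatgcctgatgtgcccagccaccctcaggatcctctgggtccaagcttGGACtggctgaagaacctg

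For Ndufs1, Ndufv1 and Ndufs8, core subunits that hold GGACT in their coding sequence, windows of 21 bases on each GGACT, the commonest m6A context, are shown with the motif in capitals. Ndufv2, the only core subunit that was called lower in the retina IPs, holds no GGACT in its coding sequence, and the window of 20 bases on its GGAC is given in its place. Its transcript holds 1 GGACT outside the coding sequence. Ndufs3 and Ndufs7, which were not called, hold no GGACT in their coding sequences either. The windows of Ndufs1 begin at coding bases 878 and 1666, that of Ndufv1 at 1003, that of Ndufs8 at 197 and that of Ndufv2 at 707. All lie in coding exons on the minus strand, and the window of Ndufs8 spans a splice junction.
Ndufs1 (chr1:63159839-63159859): cttatgatGGACTaaaacgtc
Ndufs1 (chr1:63149979-63149999): acgcgacaGGACTtgccaaag
Ndufv1 (chr19:4008400-4008420): gtgctaatGGACTtcgatgca
Ndufs8 (chr19:3911059-3911169): tcatccgaGGACTgggcatga
Ndufv2 (chr17:66079515-66079534): cacccaaaGGACctggcttt

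The sense strand of 1 transcript per gene was searched for GGAC and for GGACT, which contains it. GGAC was present in 45 of the 46 members (97.8%) and in 99.6% of the 14186 protein-coding genes tested. GGACT was present in 23 of the 46 (50%), in 5 of 7 core subunits and in 12 of 27 small accessory subunits, against 92.3% of all protein-coding genes tested. Among the 99 protein-coding transcripts near the length of Ndufa1 (345 to 501 bases), 43.4% held GGACT and 15 held no GGAC. The transcripts of the 46 members have a median of 891.5 bases, so these 99 match Ndufa1 and not the set. A match describes the letters and does not show a methylated base.

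Library totals ran from 19530226 to 40515980 counts. Protein-coding nuclear genes took 8.29 to 11.2% of the counts in the 6 retina libraries and 2.81 to 38.4% in the 6 cortex libraries. The library labelled cortex input replicate 1 stands apart: protein-coding genes took 2.81% of its counts. In it, 11 markers of mature neurons and glia summed to 22793 per 1000000 protein-coding counts, against 141 in replicate 2, and 9 progenitor markers, of which Hes5 and Ccnb1 were at 0, to 399 against 5036. The 4 erythroid markers summed to 5929 and 439 in the cortex inputs, 939 and 2185 with Ythdf1 and 600.2 and 525 with Ythdf2, against 1.24 to 5.34 in the 6 retina libraries. The summed complex I genes were also higher in cortex input replicate 1 and in Ythdf1 IP replicate 2 than in the other library of the group, at 3019.9 and 1674 in the inputs, 961 and 1814 with Ythdf1 and 773 and 725 with Ythdf2. The part of blood cells in the cortex values and in those between tissues was not tested. The counts of cortex calls below are given with and without cortex input replicate 1. The 10 retina markers were all detected in the 6 retina libraries and summed to 2808 to 2901 per 1000000. The 5 cortex markers summed to 1216 to 1736 in the other 5 cortex libraries.

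In the retina, most complex I mRNAs were lower in both IPs than in the input. In counts per 1000000 protein-coding counts, the 46 genes together were at 5349.5 and 4477 in the retina inputs, 1255 and 1179 in the Ythdf1 IPs, then 1246 and 1431 for Ythdf2. In the Ythdf1 IP 20 of 46 were called lower and 0 higher (edgeR quasi-likelihood test, adjusted p under 0.05 over all genes), where 5.23% of all genes tested were called lower and 3.57% higher. In the Ythdf2 IP 10 of 46 were called lower and 0 higher, against backgrounds of 1.76% and 0.282%. The median log2 fold change of the 46 was -1.89 for Ythdf1 and -1.99 for Ythdf2, beside 0.00 over all genes tested for either antibody. Both IP libraries lay below both inputs for 41 of the 46 with Ythdf1 (30.1% of all genes) and for 40 with Ythdf2 (25.9%).

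These counts of calls depend on the libraries in the model. The 6 retina libraries alone gave 37 of 46 lower with Ythdf1 (20.3% of all genes) and 33 lower and 1 higher with Ythdf2 (10.7% and 9.55%), and the full set without cortex input replicate 1 gave 33 lower (13.4%), and 32 lower and 1 higher (7.64% and 5.82%). Without cortex input replicate 2 in its place they gave 35 and 33 lower (16% and 8.26% of all genes). Scaled by library totals, both counts were 0, where 0% and 0.0108% of all genes were called. The calls among the 46 and among all genes also fell away without either IP library of the antibody in question, which leaves 1 library in a group. Between retina inputs and IPs the values of some marker genes of other cells differed too. Of 4 endothelial markers, which summed to 312 and 342 per 1000000 protein-coding counts in the inputs, 1259 and 1286 in the Ythdf1 IPs, then 755 and 783 for Ythdf2, Kdr made up most, at 280.0 and 321, 1181 and 1217 and 731 and 758. Pecam1 and Cdh5, which define endothelium, were at 0 to 11 counts in each of the 6 retina libraries. Cldn5, the other marker, made up the rest of each sum and was higher in both Ythdf1 IPs than in both inputs. The 6 markers of new neurons were at 789 and 1124, 1912 and 2031 and 1242 and 1172, with Tubb3 higher in the Ythdf1 IPs (387 and 270.3 in the inputs, 945 and 957 with Ythdf1) and Dcx lower (37.6 and 117, then 22.3 and 30.2), and the 9 progenitor markers at 2014 and 3243, 1625 and 1813 and 1705 and 1734. The part of these differences in the complex I values was not tested.

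**Figure D1:**
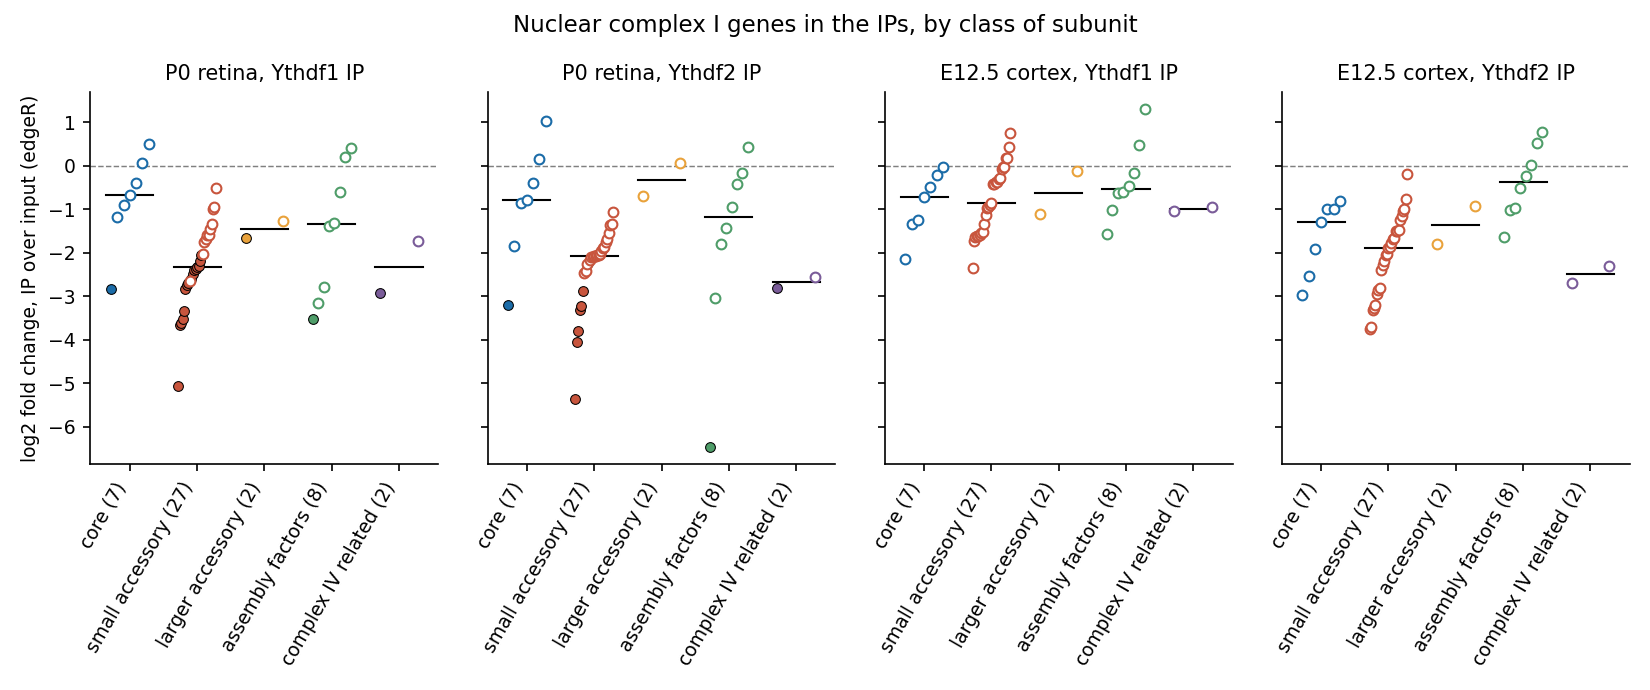
Log2 fold change of IP over input for the 46 genes, split by class of subunit, in the 4 IP comparisons; filled points were called (edgeR adjusted p under 0.05), open points were not, and bars are class medians. In the retina the small accessory subunits have medians of -2.33 and -2.07 and the complex IV related pair -2.33 and -2.68. The medians of the other classes lie higher, and no gene is called in the cortex.

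The classes differed in how far they were reduced. The 27 small accessory subunits had a median log2 fold change of -2.33 in the retina Ythdf1 IP, with 16 called lower, and of -2.07 in the Ythdf2 IP, with 7 called lower. All 27 were lower in both IP libraries than in both inputs with either antibody. So were 62.3% (Ythdf1) and 56.4% (Ythdf2) of the protein-coding genes of at most 600 coding bases. The 7 core subunits had medians of -0.68 and -0.78, with 1 called lower by each antibody, Ndufv2. The 8 assembly factors had medians of -1.34 and -1.18, with Ndufaf2 called lower by both. The median of the small accessory class minus that of the core class was -1.65 for Ythdf1 and -1.29 for Ythdf2. Members of a class are not replicates, so these differences carry no test.

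The ratio of summed counts, small accessory to core, needs no scaling between libraries. It was 7.01 and 8.60 in the retina inputs, 3.02 and 2.88 in the Ythdf1 IPs, then 2.66 and 2.39 for Ythdf2. In the cortex it was 4.16 and 2.07 in the inputs, 2.38 and 3.47 in the Ythdf1 IPs, then 1.74 and 2.68 for Ythdf2. The 2 retina inputs were above the other 10 libraries. In the retina the Ythdf2 IPs lay below the Ythdf1 IPs, and in the cortex the IPs of the 2 antibodies overlapped. In the cortex the inputs did not stand above the IPs, and the higher of the 2 inputs is the library that stands apart.

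**Figure D2:**
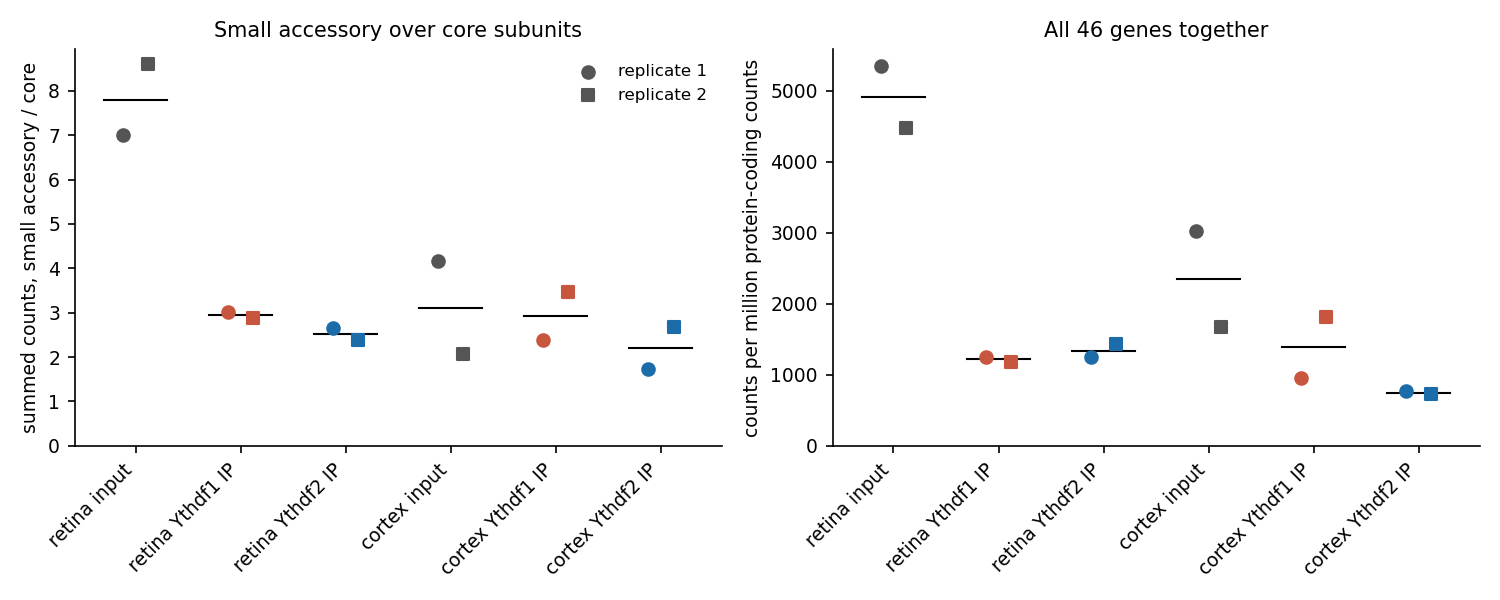
Left, summed counts of the 27 small accessory subunits divided by those of the 7 core subunits; right, counts of all 46 genes per 1000000 protein-coding counts; each of the 12 libraries is a point and bars are means of 2. The retina inputs are the highest in both plots, at 7.01 and 8.60 on the left.

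Among small accessory subunits, Ndufa3 was the most abundant member per length in the retina inputs, at 139.8 and 101 CPM per kilobase of transcript. CPM here are counts per 1000000 counts of the TMM-scaled library. Ndufa3 stood at 72.0 and 52.2 CPM in the retina inputs, 4.96 and 4.87 with Ythdf1 and 4.50 and 4.36 with Ythdf2. It fell by 3.66 on the log2 scale (SE 0.72, adjusted p 0.0187) with Ythdf1 and fell by 3.81 with Ythdf2 (SE 0.73, adjusted p 0.0279). Its 4 IP libraries lay close together and far below both inputs. Ndufb3, a subunit of the distal membrane arm (chr1:58586384-58595964), was at 30.2 and 35.5 CPM in the retina inputs, 2.48 and 2.87 with Ythdf1 and 1.72 and 2.26 with Ythdf2. It fell by 3.62 on the log2 scale (SE 0.56, adjusted p 0.0116) and, with Ythdf2, fell by 4.04 (SE 0.57, adjusted p 0.0126). The groups of input and IP did not overlap.

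Ndufb4, a membrane-arm subunit (chr16:37647170-37654453), had the lowest fold change of the nuclear subunits in both retina IPs. Its levels were 15.1 and 8.31 CPM in the retina inputs, 0.386 and 0.302 with Ythdf1 and 0.303 and 0.263 with Ythdf2, which is 12 and 8 counts for Ythdf1 and 6 and 5 for Ythdf2. It fell by 5.07 on the log2 scale (SE 0.62, adjusted p 0.0115) with Ythdf1 and fell by 5.35 with Ythdf2 (SE 0.64, adjusted p 0.00807). Reads of Ndufb4 and of its copy Ndufb4c can be split between them by the counting. Summed with Ndufb4c it was still called lower by both antibodies, at log2 -5.56 (adjusted p 0.00825) and -5.42 (adjusted p 0.00886).

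Ndufc2, a membrane-arm subunit, was at 24.3 and 14.96 CPM in the retina inputs, 1.80 and 1.62 with Ythdf1 and 3.89 and 4.41 with Ythdf2. It fell by 3.51 on the log2 scale (SE 0.51, adjusted p 0.0115) with Ythdf1 and fell by 2.24 with Ythdf2 (SE 0.48, adjusted p 0.0378). The Ythdf1 IPs lay below the Ythdf2 IPs, which lay below the inputs. Ndufb9, of the distal membrane arm, was at 21.7 and 12.2 CPM in the retina inputs, 3.09 and 1.96 with Ythdf1 and 3.69 and 3.42 with Ythdf2 and was called only with Ythdf1 (log2 -2.75, SE 0.70, adjusted p 0.0341), with an adjusted p of 0.121 for Ythdf2. Ndufa7, of the NADH-oxidising (N) module, was at 23.2 and 22.3 CPM in the retina inputs, 4.34 and 4.50 with Ythdf1 and 6.22 and 5.52 with Ythdf2 (log2 -2.36, SE 0.46, adjusted p 0.0173 with Ythdf1, and adjusted p 0.0520 with Ythdf2). Ndufa12, also of the N module, was at 41.3 and 29.7 CPM in the retina inputs, 6.98 and 7.14 with Ythdf1 and 3.39 and 4.20 with Ythdf2 and was called lower by both antibodies (log2 -2.33, SE 0.54, adjusted p 0.0265 and log2 -3.23, SE 0.56, adjusted p 0.0183). For all 4 genes both inputs lay above all 4 IPs.

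The small accessory subunits nearest to 0 in the retina Ythdf1 IP were Ndufb7, Ndufa13, Ndufv3 and Ndufb8 among those with a mean of at least 5 CPM. Ndufb7, of the distal membrane arm, was at 19.3 and 13.1 CPM in the retina inputs, 11.1 and 11.6 with Ythdf1 and 4.80 and 4.10 with Ythdf2. The Ythdf1 IPs lay just under the lower input and the Ythdf2 IPs well below it, and neither fold change was called (log2 -0.52, SE 0.45, adjusted p 0.495 with Ythdf1, log2 -1.86, SE 0.47, adjusted p 0.0685 with Ythdf2). Ndufa13, also known as GRIM-19, was at 13.7 and 9.08 CPM in the retina inputs, 5.47 and 6.01 with Ythdf1 and 5.31 and 5.68 with Ythdf2 (log2 -0.99, SE 0.57, adjusted p 0.286, and log2 -1.05, SE 0.57, adjusted p 0.389). Its exons share 375 bases with Tssk6 on the other strand. Ndufv3, of the N module, was at 22.9 and 20.6 CPM in the retina inputs, 9.04 and 5.37 with Ythdf1 and 5.46 and 4.89 with Ythdf2 (log2 -1.59 and -2.07). Ndufb8 was at 14.9 and 10.3 CPM in the retina inputs, 5.02 and 2.76 with Ythdf1 and 4.80 and 3.84 with Ythdf2 (log2 -1.69 and -1.54). Neither passed the test with either antibody.

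**Figure D3:**
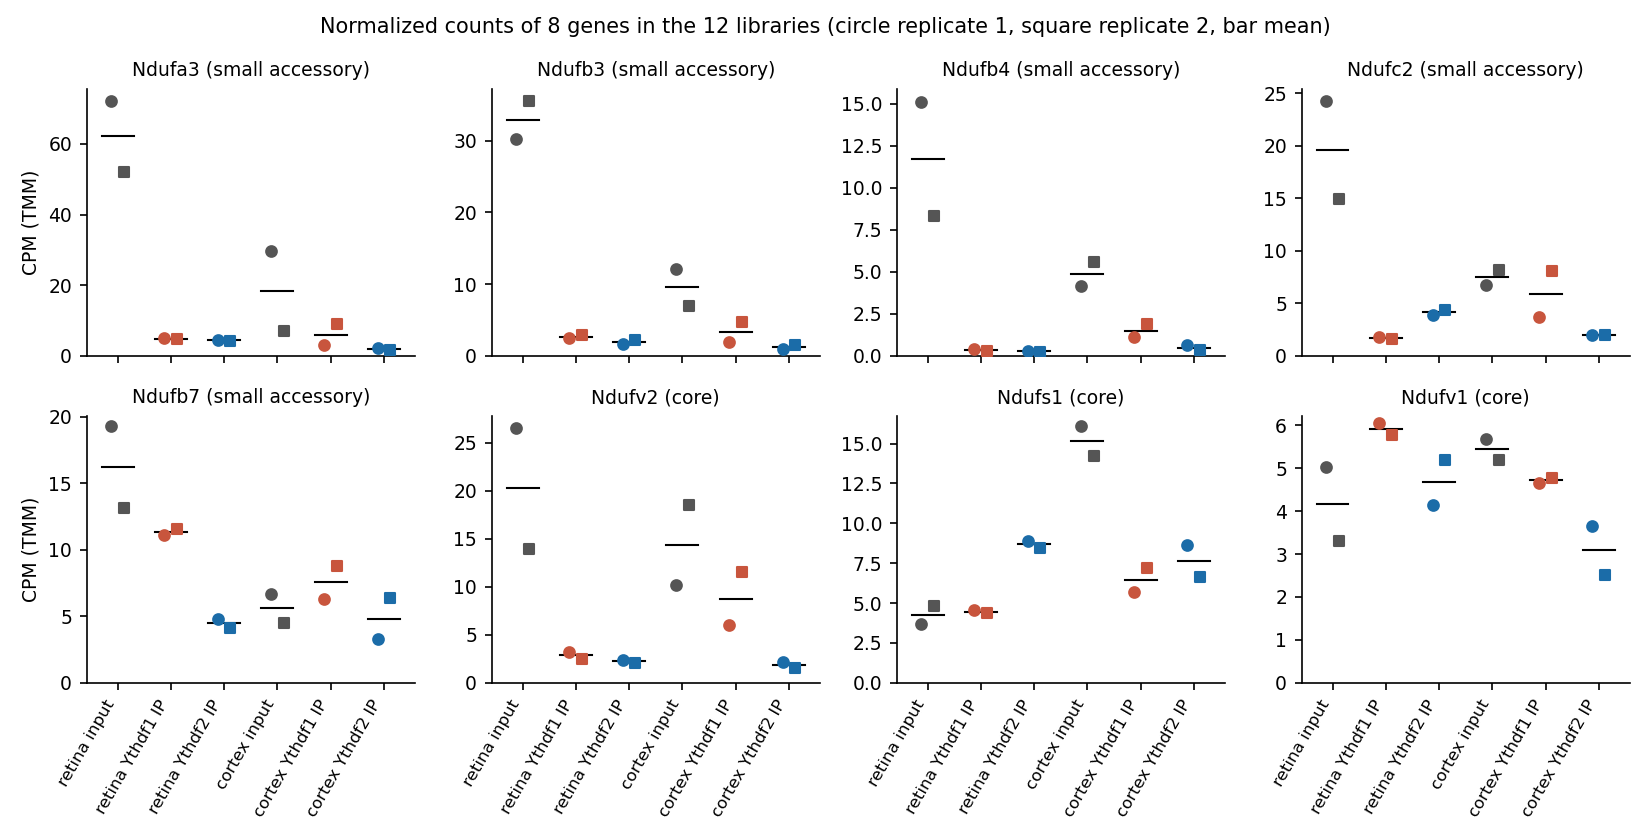
TMM-scaled CPM of 5 small accessory and 3 core subunits in the 12 libraries, replicate 1 as circles and replicate 2 as squares, with the mean of 2 as a bar; each panel has its own axis from 0. Ndufa3, Ndufb3, Ndufb4, Ndufc2 and Ndufv2 are low in all 4 retina IPs, whereas Ndufs1 and Ndufv1 are not.

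Of the other 16 small accessory subunits, 9 were called lower in the retina Ythdf1 IP: Ndufs5 (-3.33), Ndufc1 (-2.83), Ndufa6 (-2.69), Ndufs6 (-2.60), Ndufa1 (-2.50), Ndufa5 (-2.38), Ndufb10 (-2.30), Ndufb11 (-2.19) and Ndufs4 (-2.06), all as log2 fold changes. Ndufa1 and Ndufb10 were also called lower in the Ythdf2 IP, by log2 -3.32, SE 0.69, adjusted p 0.0345, and log2 -2.88, SE 0.48, adjusted p 0.0167. The other 7, Ndufb6, Ndufb2, Ndufa11, Ndufab1 (the mitochondrial acyl carrier protein), Ndufa8, Ndufb5 and Ndufa2, were at -2.64 to -0.95 with Ythdf1 and at -2.46 to -1.35 with Ythdf2, with none called. Ndufs4 and Ndufs6 encode N-module subunits, and mutations of human NDUFS4 are a cause of Leigh syndrome.

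Among the core subunits, Ndufv2, which holds an iron-sulfur cluster of the N module (chr17:66078638-66101559), stood apart from the other 6. It was at 26.6 and 13.9 CPM in the retina inputs, 3.19 and 2.49 with Ythdf1 and 2.33 and 2.10 with Ythdf2. It fell by 2.83 on the log2 scale (SE 0.54, adjusted p 0.0160) with Ythdf1 and fell by 3.19 with Ythdf2 (SE 0.55, adjusted p 0.0175). Its partner Ndufv1, which holds the flavin that accepts electrons from NADH, was at 5.04 and 3.31 CPM in the retina inputs, 6.05 and 5.78 with Ythdf1 and 4.15 and 5.20 with Ythdf2. The Ythdf1 IPs of Ndufv1 lay above both inputs and the Ythdf2 IPs overlapped them, and neither difference was called (log2 0.50, SE 0.42, adjusted p 0.472, and log2 0.16, SE 0.43, adjusted p 0.928). Ndufs1, the largest subunit and the carrier of further iron-sulfur clusters, was at 3.69 and 4.79 CPM in the retina inputs, 4.54 and 4.35 with Ythdf1 and 8.90 and 8.46 with Ythdf2. Its Ythdf1 IPs overlapped the inputs, whereas its Ythdf2 IPs lay above them (log2 1.03, SE 0.40, adjusted p 0.219). With the 6 retina libraries alone Ndufs1 was called higher with Ythdf2 (log2 1.05, adjusted p 0.0373) and likewise without cortex input replicate 1 (adjusted p 0.0427). Over 8 settings its adjusted p ran from 0.0373 to 1.00. Exons of Ndufs1 share 489 bases with the antisense gene Ino80dos.

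Ndufs3, Ndufs7 and Ndufs8, core subunits of the ubiquinone-binding (Q) module, were nearer to 0 than Ndufv2. Ndufs3 was at 5.67 and 4.54 CPM in the retina inputs, 2.90 and 3.48 with Ythdf1 and 2.28 and 3.36 with Ythdf2 (log2 -0.68 and -0.86). Ndufs7, which holds the last iron-sulfur cluster before ubiquinone, was at 7.20 and 4.93 CPM in the retina inputs, 3.70 and 2.80 with Ythdf1 and 3.24 and 3.84 with Ythdf2 (log2 -0.90 and -0.78). Ndufs3 and Ndufs7 were lower in all 4 IPs than in both inputs without passing the test. Ndufs8 was at 5.32 and 3.24 CPM in the retina inputs, 2.09 and 1.66 with Ythdf1 and 0.961 and 1.42 with Ythdf2 (log2 -1.19, adjusted p 0.187, and log2 -1.84, adjusted p 0.124). Of the larger accessory subunits, Ndufa9 was called lower with Ythdf1 (log2 -1.65, SE 0.47, adjusted p 0.0491) and not with Ythdf2 (log2 -0.70), and Ndufa10 with neither (log2 -1.26 and 0.06).

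The assembly factors spread widely. Ndufaf2, a chaperone of late assembly (chr13:108002715-108158623), was at 9.77 and 9.22 CPM in the retina inputs, 0.772 and 0.869 with Ythdf1 and 0 and 0.210 with Ythdf2. The Ythdf2 IP values rest on 0 and 4 counts, and 3 counts in those libraries are worth 0.152 and 0.158 CPM. Ndufaf2 was called lower by both antibodies (log2 -3.53, SE 0.90, adjusted p 0.0350, and log2 -6.47, SE 1.14, adjusted p 0.0185), with both inputs above all 4 IPs. Its cortex libraries did not show this gap, at 2.73 and 7.80 CPM in the cortex inputs, 2.86 and 4.24 with Ythdf1 and 1.19 and 6.35 with Ythdf2. The other 7 were not called with either antibody. Ndufaf5 was at 1.01 and 1.27 CPM in the retina inputs, 0.0644 and 0.189 with Ythdf1 and 0.758 and 0.946 with Ythdf2, with the Ythdf1 IPs below the Ythdf2 IPs (log2 -3.16 and -0.42). Ndufaf6 was at 1.46 and 1.94 CPM in the retina inputs, 0.225 and 0.265 with Ythdf1 and 0.303 and 0.105 with Ythdf2 (log2 -2.78 and -3.03). Ndufaf5 has a methyltransferase fold and Ndufaf6 resembles phytoene synthases, and both are known from inherited complex I deficiency.

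Ndufaf4 was at 3.06 and 6.51 CPM in the retina inputs, 2.06 and 1.62 with Ythdf1 and 1.21 and 1.52 with Ythdf2 (log2 -1.37 and -1.80) and Ndufaf8 at 2.78 and 2.499 CPM in the retina inputs, 1.19 and 0.945 with Ythdf1 and 0.758 and 1.21 with Ythdf2 (log2 -1.30 and -1.42). Both were lower in all 4 IPs than in the inputs. Ndufaf1 was at 0.661 and 1.02 CPM in the retina inputs, 0.579 and 0.529 with Ythdf1 and 0.607 and 0.263 with Ythdf2, lower in all 4 IPs by a small margin (log2 -0.60 and -0.94). Ndufaf3, whose exons share 48 bases with Impdh2 on the other strand, was at 2.57 and 0.845 CPM in the retina inputs, 2.25 and 1.66 with Ythdf1 and 1.82 and 1.21 with Ythdf2 (log2 0.20 and -0.17). Ndufaf7, a protein methyltransferase, was at 0.939 and 1.48 CPM in the retina inputs, 1.64 and 1.55 with Ythdf1 and 1.47 and 1.79 with Ythdf2 (log2 0.40 and 0.43). For Ndufaf3 the IPs and inputs overlapped with both antibodies, and for Ndufaf7 with Ythdf2.

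Ndufa4 was at 24.5 and 19.4 CPM in the retina inputs, 3.06 and 2.72 with Ythdf1 and 1.82 and 4.47 with Ythdf2 and was called lower by both antibodies (log2 -2.93, SE 0.62, adjusted p 0.0215, and log2 -2.80, SE 0.62, adjusted p 0.0426). Its paralog Ndufa4l2, which is induced by hypoxia, was at 50.2 and 30.3 CPM in the retina inputs, 13.5 and 10.8 with Ythdf1 and 6.47 and 7.25 with Ythdf2. All 4 IPs lay below the inputs, and neither difference was called (log2 -1.73, adjusted p 0.143, and log2 -2.55, adjusted p 0.105).

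Set directly against each other, the 2 retina IPs gave 0 calls among the 46 and 0% of all genes with edgeR. The median log2 difference, Ythdf1 over Ythdf2, was 0.09 (-0.09 with library totals), 11 members were lower and 13 higher in both Ythdf1 libraries (25.4% and 32.6% of all genes), and 6 had an unadjusted p under 0.05 (12%). The smallest p was that of Ndufa10 (log2 -1.32, SE 0.44, adjusted p 0.285), which was at 4.92 and 4.76 CPM with Ythdf1 and 11.7 and 12.5 with Ythdf2. Ndufb7 was the highest of the small accessory subunits (log2 1.35, SE 0.47, adjusted p 0.298). The assembly factors ran further in both directions, from log2 -2.74 to 2.95. DESeq2's Wald test called Ndufa10 lower with Ythdf1 (adjusted p 0.0489). Without the first cortex input, a library outside both groups, Ndufa10 was called lower and Ndufb7 higher with Ythdf1 (adjusted p 0.0412 and 0.0418), where 3.88% of all genes were lower and 2.14% higher. The 6 retina libraries alone (6.56% lower and 2.57% higher) added Ndufc2 to these (log2 -1.40, adjusted p 0.0412).

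Fold change in the retina IPs followed coding length across the members and across all protein-coding genes. Over the 46 members, Spearman's correlation between log2 fold change and coding length was 0.50 for Ythdf1 and 0.58 for Ythdf2. Over the 14186 protein-coding genes tested it was 0.39 and 0.37. Points are genes of the same libraries, not replicates, so these are descriptions. The correlation with GGAC per kilobase was 0.15 and 0.08 over the members and 0.28 and 0.08 over all protein-coding genes tested. Within the 27 small accessory subunits the correlation with coding length was 0.48 and 0.38.

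The small accessory subunits can be read beside genes as short as they are. Their coding lengths have a median of 393 bases, against 789 for the core subunits, 772.5 for the assembly factors and 1404 for all protein-coding genes tested. Among 1866 protein-coding genes of at most 600 coding bases, 424 were called lower and 19 higher in the retina Ythdf1 IP, with a median log2 fold change of -1.28 against -2.33 for the 27. For Ythdf2, 170 were lower and 0 higher, with medians of -0.92 against -2.07. Genes of 600 to 1500 coding bases, where 6 of the 7 core subunits lie, had medians of -0.04 and -0.05, and genes over 1500 bases 0.63 and 0.41. Ndufv2, with 744 coding bases, lay at -2.83 with Ythdf1, where the genes with 531 to 747 coding bases had a median of -0.60 and a lower quartile of -1.75. The part of length in the difference between classes was not tested.

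**Figure D4:**
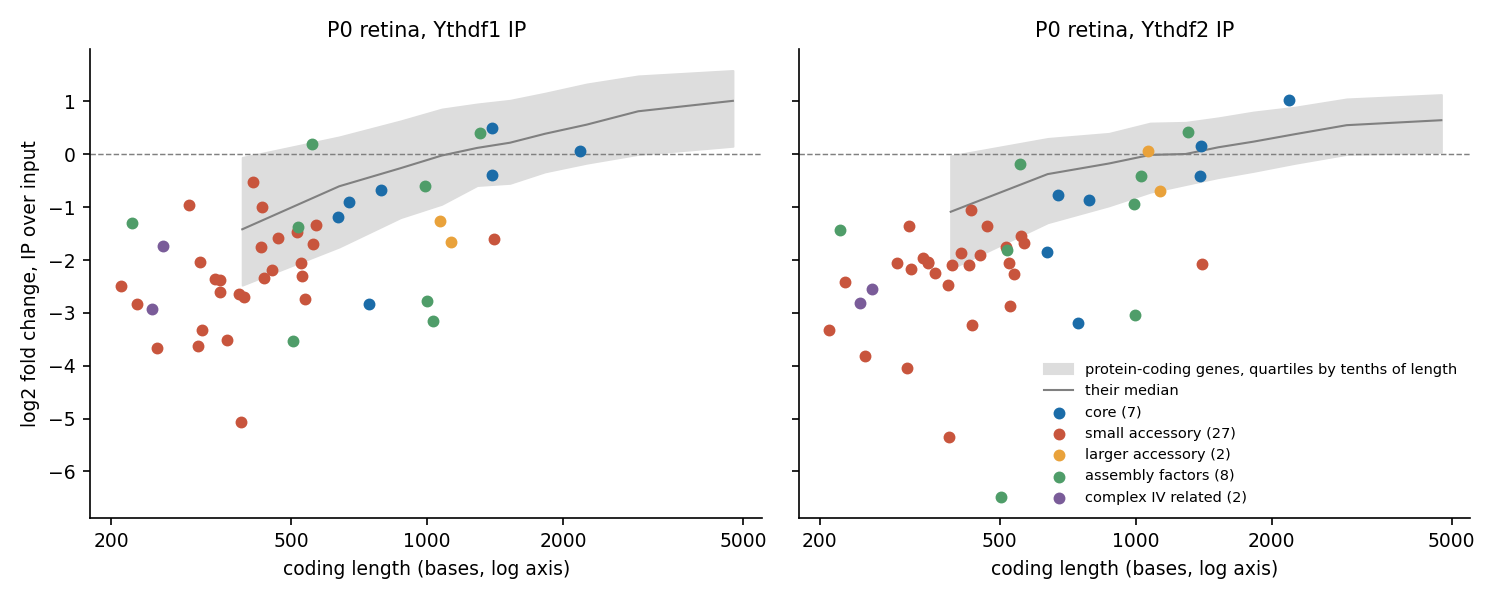
Log2 fold change of IP over input against coding length for the 46 genes, coloured by class, in the 2 retina IPs; the grey line and band are the median and quartiles of all protein-coding genes tested, in 10 groups by coding length. In the Ythdf1 IP the line rises from -1.42 in the shortest group to 1.01 in the longest, and most small accessory subunits lie below it.

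In the cortex no complex I gene was called in either IP. With Ythdf1 the 46 had a median log2 fold change of -0.68 and 12 had an unadjusted p under 0.05, where edgeR called 0% of all genes lower and 0.00542% higher. With Ythdf2 the median was -1.67 and 30 had an unadjusted p under 0.05, all lower, against calls of 0% and 0.0108% of all genes. An unadjusted p under 0.05 and a lower value was found for 9.52% and 11.6% of all genes. Both Ythdf2 IPs lay below both inputs for 37 of 46 members (17.4% of all genes) and both Ythdf1 IPs for 17 (14.3%). Among protein-coding genes of at most 600 coding bases these shares were 41.0% and 22.1%, with median log2 fold changes of -0.78 and -0.25. DESeq2's Wald test called 5 members lower with Ythdf1 (Ndufs8, Ndufs1, Ndufb9, Ndufb4 and Ndufb3, where it called 4.93% of all genes lower) and 26 lower with Ythdf2 (7.92%).

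Without cortex input replicate 1, 1 member was called lower with Ythdf1 (2.17% of all genes), Ndufb4 (log2 -1.95, SE 0.50, adjusted p 0.0418). With Ythdf2 14 were called lower (5% of all genes), 3 core and 11 small accessory subunits. The remaining input is then assumed to vary like the other groups. The lowest of the 14 were Ndufb4 (log2 -3.53, SE 0.51, adjusted p 0.00123) and Ndufv2 (log2 -3.34, SE 0.45, adjusted p 0.000857), followed in log2 fold change by Ndufa6 (log2 -2.98), Ndufs5 (-2.65) and Ndufb3 (-2.50). The other core subunits among them were Ndufs8 and Ndufs7 (log2 -2.02 and -1.92). Without cortex input replicate 2 in its place, 13 were lower and 2 higher with Ythdf1 (11.1% and 14% of all genes), and 30 lower and 1 higher with Ythdf2 (11.9% and 16.3%).

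Ndufb4 was at 4.15 and 5.58 CPM in the cortex inputs, 1.10 and 1.90 with Ythdf1 and 0.626 and 0.359 with Ythdf2. Its Ythdf2 IPs lay below its Ythdf1 IPs and those below the inputs, and in the full set its adjusted p was 0.184 for Ythdf1 and 0.0678 for Ythdf2. Ndufv2 was at 10.2 and 18.6 CPM in the cortex inputs, 6.00 and 11.5 with Ythdf1 and 2.12 and 1.56 with Ythdf2, with the Ythdf2 IPs below both inputs and one Ythdf1 IP above the lower input. Ndufb3 was at 12.1 and 7.01 CPM in the cortex inputs, 1.90 and 4.73 with Ythdf1 and 0.948 and 1.51 with Ythdf2, and all 4 IPs lay below the inputs. Ndufa3 was at 29.8 and 7.05 CPM in the cortex inputs, 2.98 and 9.13 with Ythdf1 and 2.33 and 1.67 with Ythdf2, and one Ythdf1 IP lay above the lower input. Ndufs1 was at 16.1 and 14.2 CPM in the cortex inputs, 5.66 and 7.17 with Ythdf1 and 8.62 and 6.62 with Ythdf2. In the cortex, unlike in the retina, its 4 IPs lay below both inputs, without a call (log2 -1.24 and -0.99). Ndufv1 was at 5.69 and 5.21 CPM in the cortex inputs, 4.66 and 4.78 with Ythdf1 and 3.66 and 2.51 with Ythdf2, lower in all 4 IPs (log2 -0.20 and -0.82).

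Ndufs3, Ndufs7 and Ndufs8 passed no test in the full set. Ndufs3 was at 4.39 and 4.09 CPM in the cortex inputs, 3.44 and 4.83 with Ythdf1 and 2.22 and 2.02 with Ythdf2. It was lower than both inputs in the Ythdf2 IPs, with one Ythdf1 IP above both inputs. Ndufs7 was at 3.79 and 3.80 CPM in the cortex inputs, 1.24 and 1.79 with Ythdf1 and 1.29 and 0.746 with Ythdf2. Ndufs8 was at 6.40 and 3.36 CPM in the cortex inputs, 0.830 and 1.36 with Ythdf1 and 0.758 and 0.888 with Ythdf2. All 4 IPs of both genes lay well below the inputs. The class medians with Ythdf2 were -1.29 for core, -1.90 for small accessory and -0.37 for assembly factors. With Ythdf1 they were -0.73, -0.85 and -0.54. The small accessory median minus the core median was -0.12 with Ythdf1 and -0.61 with Ythdf2, and without cortex input replicate 1 it was 0.82 and -0.50. The order of the 2 classes with Ythdf1 thus turned with that library.

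The 8 assembly factors in the cortex ranged from log2 -1.57 to 1.31 with Ythdf1 and from -1.64 to 0.79 with Ythdf2, with none called. Ndufaf5 and Ndufaf8 had 0 counts in cortex input replicate 1, where 3 counts are worth 0.356 CPM. Ndufaf5 was at 0 and 0.875 CPM in the cortex inputs, 0.610 and 0.869 with Ythdf1 and 1.00 and 0.803 with Ythdf2 and Ndufaf8 at 0 and 0.454 CPM in the cortex inputs, 0.732 and 0.760 with Ythdf1 and 0.209 and 0.642 with Ythdf2. Ndufaf7 was at 3.08 and 1.41 CPM in the cortex inputs, 0.976 and 1.20 with Ythdf1 and 1.27 and 0.954 with Ythdf2, Ndufaf1 at 1.07 and 1.42 CPM in the cortex inputs, 1.05 and 1.20 with Ythdf1 and 1.29 and 1.28 with Ythdf2. Inputs and IPs overlapped for Ndufaf1, and Ndufaf7 was lower in all 4 IPs. Ndufaf3 was at 1.78 and 0.986 CPM in the cortex inputs, 0.952 and 0.760 with Ythdf1 and 0.663 and 0.661 with Ythdf2. Its IPs lay just under the lower input. Ndufaf4 was at 1.07 and 2.95 CPM in the cortex inputs, 1.05 and 2.01 with Ythdf1 and 2.03 and 1.56 with Ythdf2, with inputs and IPs overlapping. Ndufaf6 was at 0.356 and 2.40 CPM in the cortex inputs, 0.586 and 0.380 with Ythdf1 and 0.512 and 0.425 with Ythdf2, with the 2 inputs on both sides of the IPs.

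Between the cortex IPs 33 of 46 members were higher in both Ythdf1 libraries than in both Ythdf2 libraries (19.7% of all genes), with a median log2 difference of 1.14. None was called, in a comparison where edgeR called 0% of all genes, and 17 members had an unadjusted p under 0.05 (4% of all genes). The median turned to -0.28 when libraries were scaled by their totals, a scaling that moved the median of all genes to -1.33. Relative to the median of all genes the members were higher with Ythdf1 in both scalings. Ndufv2 had the smallest p (log2 2.25, SE 0.52, adjusted p 0.676), followed by Ndufa1 (log2 2.38, SE 0.67, adjusted p 0.965), which was at 11.7 and 2.75 CPM in the cortex inputs, 1.73 and 3.97 with Ythdf1 and 0.531 and 0.548 with Ythdf2. Both were called higher without cortex input replicate 1 (adjusted p 0.0177 and 0.0192; 0.671% of all genes higher and 0.0345% lower). DESeq2's Wald test called Ndufv2 in the full set (adjusted p 0.0107).

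The difference between tissues in IP over input was tested as an interaction. edgeR called no member for either antibody (background 0.00542% of all genes for Ythdf1 and 0.0325% for Ythdf2). For Ythdf1 the median log2 difference, retina minus cortex, was -1.26 over the 46, -1.75 over the small accessory subunits and 0.43 over the core subunits, and 17 members had an unadjusted p under 0.05 (16.6% of all genes). For Ythdf2 the medians were -0.18, -0.31 and 0.88, with 5 members under 0.05 (11.3%). Protein-coding genes of at most 600 coding bases had medians of -0.96 for Ythdf1 and -0.27 for Ythdf2. Ndufc2 and Ndufb4 had the smallest p for Ythdf1 (log2 -3.15, SE 0.67, adjusted p 0.115, and log2 -3.35, SE 0.77, adjusted p 0.126). Without cortex input replicate 1, 10 members were called lower in the retina for Ythdf1 (2.41% of all genes lower and 1.11% higher) and 0 for Ythdf2 (0.473% and 0.444%), with the smallest p for Ndufb11 (log2 -3.34, SE 0.58, adjusted p 0.00576) and Ndufa3 (log2 -3.38, SE 0.69, adjusted p 0.0143). Tissue and age differ together between these groups and cannot be told apart.

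The inputs themselves differed between the tissues. Retina against cortex, 4 members were called higher and 1 lower, where edgeR called 3.51% and 4.01% of all genes. The higher ones were Ndufa4l2 (log2 5.54, SE 0.87, adjusted p 0.00606), Ndufa2 (log2 2.51, SE 0.58, adjusted p 0.0267), Ndufa7 (log2 2.02, SE 0.46, adjusted p 0.0247) and Ndufv3 (log2 1.99, SE 0.55, adjusted p 0.0481). Ndufa4l2 was at 50.2 and 30.3 CPM in the retina inputs and 1.78 and 0.299 in the cortex inputs, and Ndufs1, the lower one, at 3.69 and 4.79 and 16.1 and 14.2 (log2 -1.84, SE 0.40, adjusted p 0.0218). The class medians were 1.02 for small accessory and -0.17 for core subunits, beside -0.15 over all genes tested and 0.85 over protein-coding genes of at most 600 coding bases. In bulk samples, less RNA of a gene per cell and fewer cells that hold it cannot be told apart. With library totals the median of the 46 turned from 0.83 to -0.06, while that of all genes went to -1.17. Without cortex input replicate 1, 15 were higher and 1 lower (8.82% and 11.1% of all genes). Spearman's correlation between this log2 difference and coding length was -0.57 over the members and -0.33 over all protein-coding genes tested.

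Among the other genes of the respiratory chain, the lists of complexes III, IV and V (ATP synthase) and of the mitochondrial genome had low medians in the retina IPs as well. The lists were drawn up with earlier results of these data known and are a description. All 7 mitochondrially encoded complex I subunits were called lower with Ythdf1 (median log2 -6.67) and 3 with Ythdf2 (median -4.48), with the smallest p with Ythdf1 for mt-Nd2 (log2 -7.63, SE 1.16, adjusted p 0.0115) and mt-Nd4 (log2 -7.32, SE 1.21, adjusted p 0.0125). With Ythdf1, 3 of 9 nuclear complex III genes were called lower (median -2.19; Uqcrb log2 -3.92, SE 0.62, adjusted p 0.0119), 6 of 11 nuclear complex IV genes (median -2.48; Cox7b log2 -4.27, SE 0.58, adjusted p 0.0115) and 12 of 17 nuclear ATP synthase genes (median -2.31; Usmg5 log2 -4.13, SE 0.75, adjusted p 0.0144). None of these was called higher. With Ythdf2 the counts were 3, 4 and 5. Of all genes tested, 5.23% were called lower with Ythdf1 and 1.76% with Ythdf2. Of the 1866 protein-coding genes of at most 600 coding bases, 424 and 170 were called lower.

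Complex II, which is all nuclear, had 1 of 4 genes called lower with Ythdf1, Sdhc (log2 -1.89, SE 0.43, adjusted p 0.0255), while its flavoprotein Sdha was at log2 1.33, SE 0.41, adjusted p 0.0671. Of 11 complex I assembly factors with other names, 1 was called lower, Tmem126a (log2 -3.51, SE 0.82, adjusted p 0.0267), and their median was 0.02. Of 10 transcriptional regulators of nuclear respiratory genes, 0 were called with Ythdf1, with a median of 0.79. An unadjusted p under 0.05 with edgeR was found for 3 of the 10 and for 4944 of the 18458 genes tested. The smallest adjusted p of the 10 was 0.122, for Gabpa. In the cortex none of these lists held a called gene, where edgeR called 0% of all genes lower and 0.00542% and 0.0108% higher with Ythdf1 and Ythdf2. The 7 mitochondrially encoded subunits had medians there of -3.77 and -5.30.

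**Figure D5:**
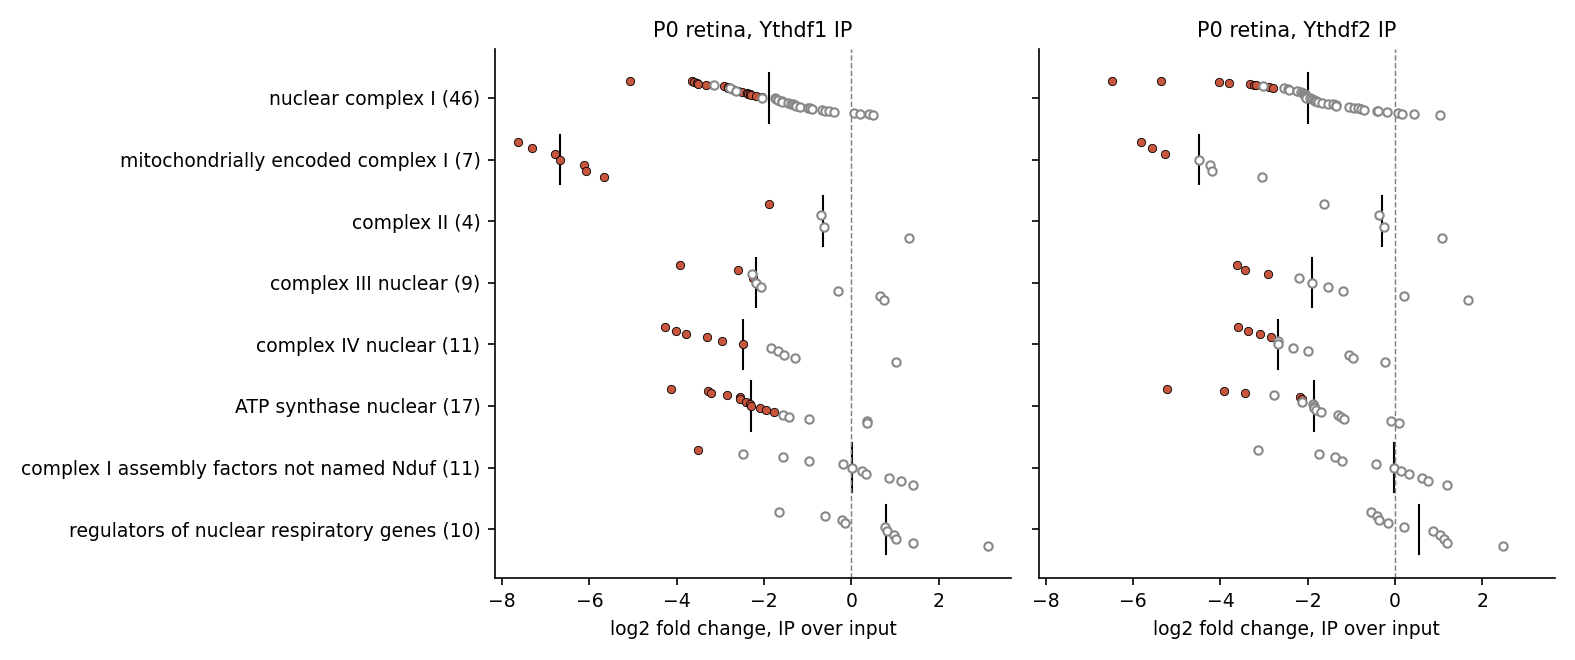
Log2 fold change of IP over input in the 2 retina IPs for the 46 nuclear complex I genes and 7 other lists, with the number of genes tested in brackets; filled points were called (edgeR adjusted p under 0.05), open points were not, and vertical bars are medians. The mitochondrially encoded subunits lie lowest, with a median of -6.67 in the Ythdf1 IP, and the regulators lie around or above 0.

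By place in the complex, the N module had 6 of 10 members called lower in the retina Ythdf1 IP (median -2.19) and the Q module 2 of 6 (-1.04). The membrane arm was split into Ndufb2, Ndufb3, Ndufb7, Ndufb8 and Ndufb9 and the 14 other subunits, without Ndufab1. Of the 14 others 8 were called lower (-2.40), and of the 5 named 2 were (-2.04), where 5.23% of all genes were called lower. With Ythdf2 the counts were, in the same order, 2, 0, 5 and 1, against 1.76% of all genes. The Q module holds 4 of the 7 core subunits, so module and class overlap. With Ythdf1 the N module ran from Ndufv2 at -2.83 to Ndufv1 at 0.50, and the proteins of these 2 bind each other. All members of the Q module and of the membrane arm were below 0 with Ythdf1.

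Exons of 15 of the 46 members overlap those of another gene with at least 50 counts, in every case on the other strand. The library kit keeps strand, but whether the counting used it is not given in the sources used here, so reads from such pairs cannot be told apart. The largest partners by counts were Rbm10 for Ndufb11, Eef1b2 for Ndufs1, Shmt2 for Ndufa4l2, Braf for Ndufb2 and Impdh2 for Ndufaf3. Ndufa13, Ndufb5 and Ndufs1 share the most bases, with Tssk6 (375), Mrpl47 (616) and Ino80dos (489).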

How the data were processed

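RNA immunoprecipitation sequencing libraries of Ythdf1, Ythdf2 and input from cortex and retina (6 groups of 2, 12 libraries) were analysed. The authors deposited whole-number read counts per gene, the measure used in all main tests, and FPKM for the same genes, used in 1 alternative. Per the submitters' processing notes, STAR 2.5, HTSeq and GRCm38 were used; the sources used here do not give the annotation release, the gene lengths behind FPKM or the strand setting of the counting. Per the labels' protocols, RNA was recovered with a RIP kit and made into TruSeq stranded libraries.

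Of 52550 gene IDs, 52403 matched GENCODE M21, which gave symbols, coordinates, transcripts and coding lengths. Genes were kept by filterByExpr (minimum count 10, minimum total 15; 18458 genes, all 46 members), scaled by TMM, and fitted in 1 edgeR quasi-likelihood model of 12 libraries with a mean per group (R 4.3.3, edgeR 4.0.16, limma 3.58.1; 6 residual degrees of freedom). Tests were two-sided, with Benjamini-Hochberg adjustment across the 18458 genes and calls at an adjusted p under 0.05. CPM are counts per 1000000 counts of the TMM-scaled library, and each SE is the size of a log2 fold change over the root of its F statistic. Depth set the precision: 3 counts were worth 0.0283 to 0.356 CPM, counting error only. The fitting code was tested on simulated data.

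Values in every library are given for core subunits (1 is not reported here by name, but is in all counts and medians) and assembly factors, for Ndufb4 and Ndufa4, and, among small accessory subunits with a mean of at least 5 CPM, for the 6 lowest and 4 highest in the retina Ythdf1 comparison; others are given where a comparison turns on them. Members, lists and rules were chosen with earlier results of these data known. Small accessory subunits are all accessory subunits but Ndufa9 and Ndufa10. Alternatives were RLE size factors, library totals, protein-coding genes only, no count filter, DESeq2 1.42.0, limma-trend on log2(FPKM + 1), a replicate block, 1 tissue alone and leaving out each library; summing Ndufb4 with Ndufb4c and a coding length under 600 were added after seeing the data.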

Additional observations from a re-analysis of the deposited data

How the results depend on the processing

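The counts of complex I genes called depended on the processing, whereas no fold change of the 35 called results changed sign under any alternative. With library totals the counts were 0 for each retina IP and 1 for the inputs (of all genes, in the same order, 0%, 0.0108% and 1.94% were called), and with limma-trend on log2(FPKM + 1) likewise 0, 0 and 1 (0.135%, 0.108% and 0.553%). Without a count filter they were 1 and 14 for the cortex Ythdf1 and Ythdf2 IPs, 2 and 1 for the tissue differences of Ythdf1 and Ythdf2, and 8 for the inputs (3.54%, 4.37%, 3.22%, 2.04% and 8.38%). DESeq2 called 28 in the retina Ythdf2 IP, 1 between the retina IPs, 5 and 26 in the cortex IPs, 1 between the cortex IPs, 3 and 2 for the tissue differences and 10 for the inputs (8.55%, 3.74%, 7.29%, 12%, 0.385%, 6.31%, 2.44% and 18.7%). The retina libraries alone gave 37, 34 and 3 for the Ythdf1 IP, the Ythdf2 IP and the comparison of the IPs (37.6%, 20.2% and 9.13%). Leaving out 1 library at a time gave 0 to 35 for the retina Ythdf1 IP, 0 to 33 for the retina Ythdf2 IP, 0 to 2 between the IPs of either tissue, 0 to 15 and 0 to 31 for the cortex Ythdf1 and Ythdf2 IPs, 0 to 11 and 0 to 7 for the tissue differences and 1 to 16 for the inputs. The high ends came without 1 of the cortex inputs, also in comparisons that do not use them (with cortex input replicate 2 left out, 26.3% and 12.7% of all genes were called in the retina Ythdf1 and Ythdf2 IPs, 25.1% and 28.2% in those of the cortex, 25.6% and 21.6% for the tissue differences, and with replicate 1 left out 19.9% for the inputs), and the low ends in the retina without 1 library of the groups compared. Retina input replicate 1 or 2 left out gave 3 and 5 for Ythdf1 (1.46% and 0.83% of all genes) and 0 and 4 for Ythdf2 (0% and 0.359%), and leaving out a retina IP of the other antibody gave 8 and 8 for Ythdf1 (2.05% and 2.05%) and 3 and 2 for Ythdf2 (0.383% and 0.363%). The cause was not tested.

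The small accessory median minus the core median kept its sign in the retina, at -1.42 and -1.13 with limma-trend and at -1.76 to -1.52 and -1.45 to -1.24 with a library left out. In the cortex Ythdf1 IP it turned to 0.55 with library totals and 0.094 with limma-trend, and ran from -0.52 to 0.82 with a library left out, turning without cortex input replicate 1 (0.82) or Ythdf1 IP replicate 1 (0.11). In the cortex Ythdf2 IP it was -0.41 with library totals, -0.43 with limma-trend and -1.004 to -0.13 with a library left out. With the replicate number as a block, 16 and 7 genes were called in the retina IPs and 0 in the cortex IPs (6.48% and 1.35% of all genes in the retina). Deviations of same-numbered libraries correlated at -0.0762 to 0.0582 over 15 pairs of groups. With 2 libraries a group, and with pairs across tissues among the 15, this cannot show whether the numbers pair the libraries. RLE size factors, protein-coding genes only and the summed Ndufb4 kept every count within 1.5 times. Depth limits members with few counts in an IP, such as Ndufb4 and Ndufaf2.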
